A study of Mus musculus with 2 samples.

Results

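The genes described here are Mir375 and the 3 genes of the miR-7 family, Mir7-1, Mir7-2 and Mir7b, 4 of the 2202 miRNA genes counted in microRNA-seq libraries of the mouse adrenal gland. They were chosen by name, as miRNA genes known from hormone-secreting cells, and not by a cut on their level. Earlier results of these data were known when they were chosen. The libraries came from adrenal tissue of female B6CASTF1/J mice aged 36 days, a first-generation hybrid of a laboratory strain and a wild-derived strain, with no treatment named in the labels. They form 1 group of 2, labelled biological replicates 1 and 2 and described as separately numbered females, although both carry 1 donor identifier. The SD below may therefore be the spread of 2 animals or only a technical one, and there is no second tissue, sex, age or condition to compare with. The labels name the adrenal gland and no part of it, so cortex and medulla were taken to be sequenced together. More cells of a type and more RNA per cell therefore cannot be told apart.

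A miRNA is cut from a hairpin precursor, and either arm of the hairpin, called 5p or 3p, can give a mature RNA that pairs with target messages mainly through its seed, bases 2 to 8. miR-375 is best known from pancreatic islets and the pituitary, where it is abundant and bears on hormone secretion. miR-7 is known from islets, the pituitary and neuroendocrine neurons, and the circular RNA Cdr1as carries many sites for it. The medulla of the adrenal gland holds chromaffin cells, neuroendocrine cells that secrete catecholamines, and the cortex makes steroid hormones.

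The mature sequences decide how far the miR-7 genes can be told apart in a count per gene, so they are shown first. They are taken from RefSeq (GRCm38.p6), where all 4 genes matched by symbol, and the seed is in capitals.
mmu-miR-375-5p: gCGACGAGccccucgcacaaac
mmu-miR-7a-5p: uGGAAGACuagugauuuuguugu
mmu-miR-7b-5p: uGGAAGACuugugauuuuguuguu
mmu-miR-7a-1-3p: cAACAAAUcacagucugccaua
mmu-miR-7a-2-3p: cAACAAGUcccagucugccaca
mmu-miR-7b-3p: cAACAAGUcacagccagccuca

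miR-7a-5p was encoded by 2 genes, Mir7-1 and Mir7-2, with the same 23 bases in both hairpins. miR-7b-5p, from Mir7b, had the same seed and differed from miR-7a-5p by A10U (counted from 1 at the 5′ end, miR-7a-5p first) and by 1 added base at its 3′ end. No other mature miRNA in the RefSeq table had the seed of these 2 RNAs. The 3p arms were more distinct. miR-7a-1-3p and miR-7a-2-3p differed by A7G, A10C and U21C, and the seed of miR-7a-2-3p was that of miR-7b-3p. miR-375-3p, the other product of Mir375, is the arm known from islets. It was missing from the RefSeq table used, so its sequence and seed are not shown and the table is not complete. The seed of miR-375-5p was shared with no other mature miRNA of the table, and its longest stretch in any other annotated hairpin was 9 bases.

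The 3 miR-7 hairpins show where a read can be placed. Mature RNAs are in capitals.
Mir7-1: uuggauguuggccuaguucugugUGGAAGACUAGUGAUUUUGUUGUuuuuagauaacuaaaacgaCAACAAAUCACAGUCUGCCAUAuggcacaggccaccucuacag
Mir7-2: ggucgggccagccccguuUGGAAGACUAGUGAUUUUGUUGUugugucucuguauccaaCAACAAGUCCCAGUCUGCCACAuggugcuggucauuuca
Mir7b: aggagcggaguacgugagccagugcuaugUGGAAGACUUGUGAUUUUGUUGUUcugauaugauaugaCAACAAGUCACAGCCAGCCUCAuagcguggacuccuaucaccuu

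The longest stretch common to the hairpins of Mir7-1 and Mir7-2 was 24 bases, which is all of miR-7a-5p and the base after it. A read of miR-7a-5p alone therefore fits both genes equally. The tables list reads with several places as an entry apart from the genes, which was read as leaving them out of every gene's count, since the counting rule itself is not stated. On that reading the counts of Mir7-1 and Mir7-2 hold their 3p arms and reads that reach past the common stretch, are incomplete, and say little about the amount of miR-7a-5p. Over its whole hairpin, both arms included, Mir7b shared at most 14 bases with any other annotated miRNA hairpin and Mir375 at most 9, so a read as long as their mature RNAs fits 1 annotated miRNA gene without mismatch. Of the 306 detected genes with a mature sequence in the table, 45 (14.7%) had a mature RNA that lies in more than 1 annotated hairpin, as Mir7-1 and Mir7-2 do.

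The 4 genes lie on 4 chromosomes, and no other miRNA gene was annotated within 10 kb of any of them (mm10, GENCODE M21). Mir375 (ENSMUSG00000065616.3, chr1:74900658-74900721, minus strand) was intergenic, 7514 bases from Cryba2, which encodes a lens crystallin, and 1349 bases from Cfap65, a cilia gene. Mir7-1 (ENSMUSG00000065434.1, chr13:58392779-58392886, minus strand) lay inside Hnrnpk, the gene of an RNA-binding protein, on the same strand. It fell within 12 annotated transcripts of Hnrnpk and overlapped no exon, so its position was intronic. Mir7-2 (ENSMUSG00000065609.1, chr7:78888277-78888373, plus strand) was intergenic, 7480 bases from Aen. Mir7b (ENSMUSG00000065491.1, chr17:56242988-56243098, plus strand) was intergenic too, 182 bases past the annotated end of the long noncoding gene AC026385.1 on the same strand.

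Levels are counts per 1000000 (CPM), a gene's sense-strand reads for every 1000000 sense reads of miRNA genes in that library. Each read was taken to stand for a whole small RNA, so no value was divided by a length. Read lengths were not available to check this. The total was 5397603 sense miRNA reads in replicate 1 and 3029977 in replicate 2, so 1 count was worth 0.185 and 0.330 CPM. A gene was called detected when each library gave it 10 counts or more, which 339 of the 2202 genes reached, and all 4 of these genes were among them.

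Mir375 was one of the most abundant miRNA genes of the gland by counted reads. It had 156107 counts in replicate 1 and 67404 in replicate 2. These are 28922 CPM (95% Wilson interval 28781 to 29063) and 22246 CPM (22080 to 22412), with a mean of 25584 ± 4721 CPM (SD, n = 2). It ranked 11 among all genes in replicate 1 and 14 in replicate 2. Its mean was 196-fold that of the median detected gene, 130 CPM. Mir375 alone held 2.89% of the sense miRNA reads of replicate 1 and 2.22% of those of replicate 2. Intervals cover only the counting error of reads within 1 library, and they are far narrower than the gap between the libraries. These are PCR reads without molecular identifiers, so copies of 1 molecule are not told apart.

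As counted, Mir7b led the 3 miR-7 genes, with reads of miR-7a-5p that fit both Mir7-1 and Mir7-2 left out on the reading above. Mir7b had 13867 counts in replicate 1 and 9120 in replicate 2. These are 2569 CPM (95% Wilson interval 2527 to 2612) and 3010 CPM (2949 to 3072), a mean of 2790 ± 312 CPM (SD, n = 2). It ranked 46 in both libraries. On the CPM scale Mir7b was above its replicate 1 value in replicate 2, whereas the other 3 genes had the higher value in replicate 1, with intervals that overlap for Mir7-2.

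Mir7-1 and Mir7-2, whose shared 5p RNA fits both genes, had far lower counts. Mir7-1 had 786 and 348 counts in replicates 1 and 2, or 146 CPM (95% Wilson interval 136 to 156) and 115 CPM (103 to 128), a mean of 130 ± 21.8 CPM (SD, n = 2). It was the median detected gene. Mir7-2 had 171 and 75 counts, or 31.7 CPM (27.3 to 36.8) and 24.8 CPM (19.7 to 31.0), a mean of 28.2 ± 4.90 CPM (SD, n = 2). Mir7-2 lay below the median of detected genes in both libraries, at ranks 240 and 239 of all genes.

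**Figure D1:**
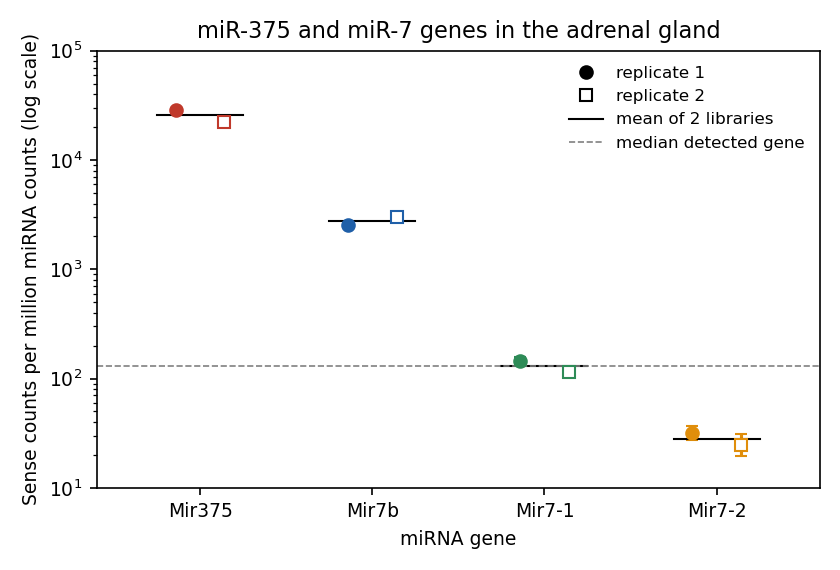
Level of each gene in CPM on a log axis, with filled circles for replicate 1, open squares for replicate 2, 95% Wilson intervals as bars, a black line at the mean of the 2 libraries and a dashed line at the median detected gene (130 CPM). The libraries lie close together for each gene beside the steps between genes, from a mean of 25584 CPM for Mir375 down to 28.2 CPM for Mir7-2. Counts of Mir7-1 and Mir7-2 leave out reads that fit both, on the reading given in the text.

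Together the 4 genes held 3.17% of the sense miRNA reads in replicate 1 and 2.54% in replicate 2, of which Mir375 made up 91.3% and 87.6%. The 3 miR-7 genes held 0.275% and 0.315%. Mir7b accounted for 93.5% of the counted miR-7 reads in replicate 1 and 95.6% in replicate 2. On the reading above, reads of miR-7a-5p that fit both Mir7-1 and Mir7-2 are missing from these shares, so the shares do not show that miR-7b was more abundant than miR-7a. Reads that mapped to several places numbered 3984008 in replicate 1 and 2302439 in replicate 2, or 4163 and 5443 for each read counted for Mir7-1 or Mir7-2. How many of them were miR-7a-5p is not known.

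As counted, the order Mir375, Mir7b, Mir7-1, Mir7-2 held in both libraries, with reads that fit both Mir7-1 and Mir7-2 left out on the reading above. The spread between libraries, pooled over genes as edgeR's common dispersion, was a coefficient of variation of 41.6%, which sets a limit of 2.26-fold for calling the geometric means of 2 genes different. All 6 pairs passed that limit. It covers the spread between libraries only, and not a yield that depends on sequence and is alike in both libraries. The folds between genes therefore compare counts. Mir375 was 11.3-fold Mir7b in replicate 1 and 7.39-fold in replicate 2. Mir7b was 17.6-fold Mir7-1 in replicate 1 and 26.2-fold in replicate 2. These 2 folds thus moved by 1.52 and 1.49 times between the libraries, where the pooled spread allows 5.10 times. That spread comes from these same 2 libraries, so the allowance is no independent test.

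Mir7-1 and Mir7-2 kept a steadier proportion. Mir7-1 had 4.60 reads for each read of Mir7-2 in replicate 1 (95% exact interval 3.89 to 5.46) and 4.64 in replicate 2 (3.61 to 6.04). Mir375 was 199-fold Mir7-1 in replicate 1 and 194-fold in replicate 2, and 913-fold and 899-fold Mir7-2. The folds of these 3 pairs moved by 1.01 to 1.03 times between the libraries. Among all 57291 pairs of detected genes, 0.967% moved by less than the Mir7-1 and Mir7-2 pair and 2.51% by less than the Mir375 and Mir7-1 pair, whereas 40.5% moved by less than Mir375 and Mir7b. With 2 libraries these shares describe the libraries and are no test. The counting interval of Mir7-1 over Mir7-2 is also far wider than the gap between its values.

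**Figure D2:**
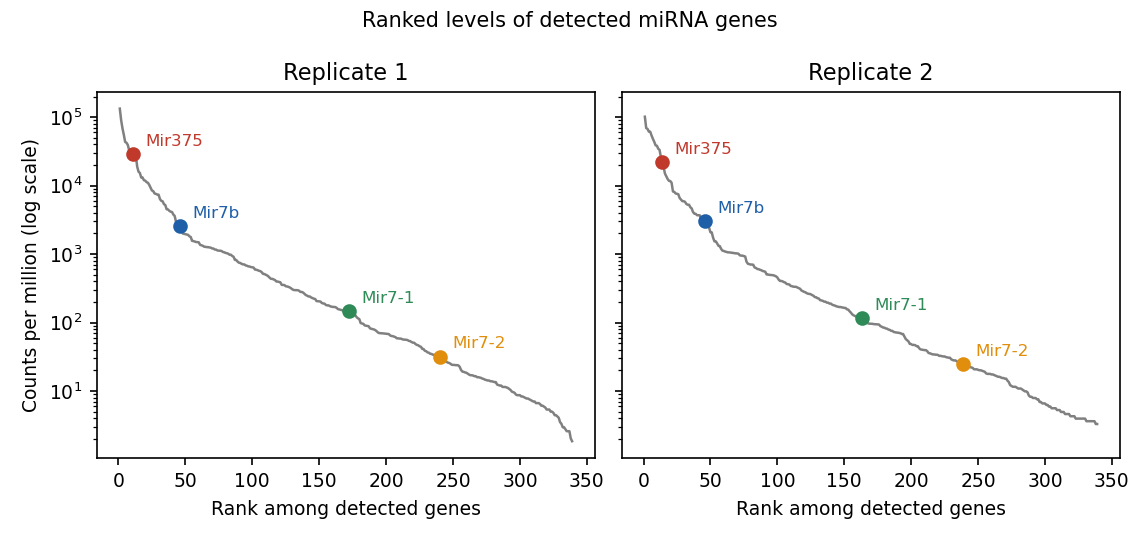
Detected genes ranked by level in each library (x axis, rank; y axis, CPM on a log axis), with the 4 genes marked on the curve. In both panels Mir375 sits on the steep left end at ranks 11 and 14, Mir7b at rank 46, and Mir7-1 and Mir7-2 on the long slope of moderate and low genes.

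Genes with levels like those of the 4 were the 2 next above and the 2 next below each in mean CPM. Around Mir375 these were Mir21a (26772 ± 11071 CPM, SD, n = 2), Mir22 (26649 ± 22145), Mir10b (24606 ± 12204) and Mir139 (22932 ± 5785), each of which has a larger SD than Mir375. Around Mir7b they were Mir93 (3415 ± 649), Mir145a (3254 ± 2833), Mir17 (2778 ± 353) and Mir140 (2722 ± 1976). Around Mir7-1 they were Mir186, Mir329, Mir494 and Mir667, with means from 126 to 136 CPM, and around Mir7-2 they were Mir218-2, Mir677, Mir410 and Mir669l, with means from 26.5 to 30.0 CPM. All 16 were within the 2.26-fold limit of their gene, so none of these places in the order stands apart from the next. Only Mir139, Mir93, Mir186 and Mir329 had the same order against their gene in both libraries. In all, 16 other detected genes were within the limit of Mir375, 33 of Mir7b, 76 of Mir7-1 and 80 of Mir7-2.

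The ratio between the libraries was taken with TMM scaling, which corrects for depth and composition. A two-sided exact binomial test, adjusted by Benjamini-Hochberg, was run on each of the 434 genes whose counts in the 2 libraries summed to 10 or more. It sets 1 library against the other and says nothing of conditions. It called 58.5% of the 434 genes, 30.2% towards replicate 1 and 28.3% towards replicate 2. Of the 4 genes it called 2, 1 in each direction, which is near that background.

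Mir375 was 1.05-fold higher in replicate 1 (log2 ratio 0.08, exact binomial test, adjusted p = 2.53e-30). The call rests on its high counts, and the sign turned with the correction for GC content given further on. Mir7b was 1.44-fold higher in replicate 2 (log2 ratio -0.53, exact binomial test, adjusted p = 5.66e-158), close to the median size over all tested genes, 1.49-fold. Mir7-1 (log2 ratio 0.04, adjusted p = 0.752) and Mir7-2 (log2 ratio 0.05, adjusted p = 0.875) were not called by the exact binomial test. Only 8.29% of tested genes had a smaller ratio than Mir375, 5.30% a smaller one than Mir7-1 and 6.22% a smaller one than Mir7-2, against 45.6% for Mir7b. All 4 ratios lay within the 3.16-fold that the pooled spread allows between 2 libraries. With that spread in place of counting error, edgeR's exact test called none of the 4 genes and none of the 434. Of the 434, 24 had an unadjusted p under 0.05 by that test, and none of the 4 did. That spread was estimated from these same 2 libraries as 1 group, so it already holds the differences it was set against. The lack of calls was thus close to fixed in advance and does not show that the libraries were alike.

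**Figure D3:**
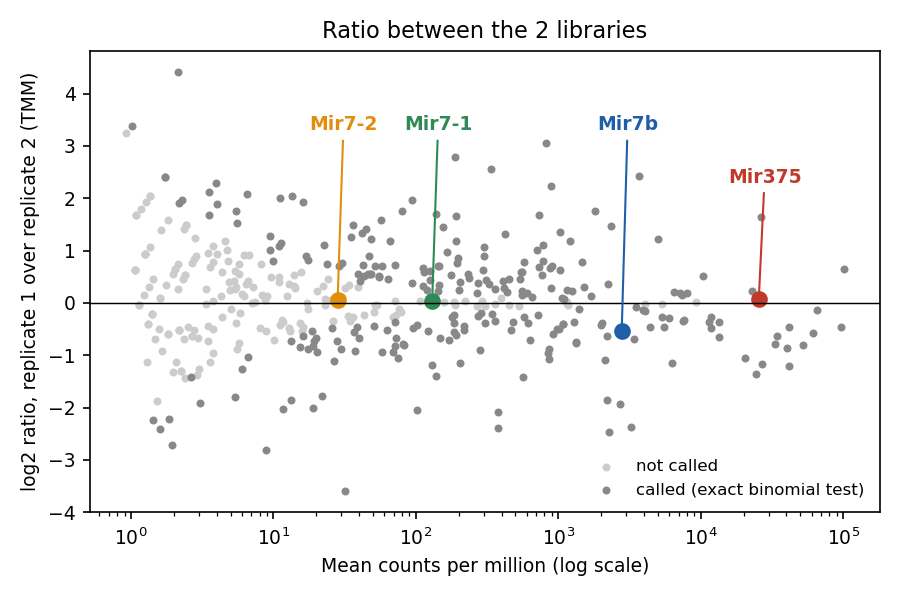
The log2 ratio of replicate 1 over replicate 2 with TMM scaling (y axis) against mean CPM on a log axis (x axis) for the 434 tested genes, dark where called by the exact binomial test. Mir375, Mir7-1 and Mir7-2 lie near 0, at 0.08, 0.04 and 0.05, and Mir7b lies at -0.53, well inside the cloud of genes of like level.

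The direction of 3 of the 4 ratios depended on the scaling or on a correction for base composition. Total counts in place of TMM shifted every log2 ratio by 0.30 towards replicate 1. Calls then split into 189 genes towards replicate 1 and 83 towards replicate 2, in place of 131 and 123. On that scale Mir375 was 1.30-fold higher in replicate 1, Mir7-1 was 1.27-fold higher and called (exact binomial test, adjusted p = 0.000424), and Mir7-2 had a ratio of 1.28-fold and was not called (exact binomial test, adjusted p = 0.122). With DESeq2 size factors the 3 log2 ratios were 0.0037, -0.034 and -0.024, and none was called (exact binomial test, adjusted p from 0.661 to 0.976). Mir7b was higher in replicate 2 under TMM and all 9 alternatives, by log2 ratios from -0.23 to -0.60. Among these, the pooled spread keeps the TMM ratio and a prior of 2 counts barely moves it (-0.53 in both). Neither could turn the direction at such counts.

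The 4 hairpins differ in base composition, and the ratio tended to rise with GC content across genes. GC content was taken over the whole hairpin, and that of the mature RNAs was not tested. Among the 284 genes whose counts summed to 100 or more, the log2 ratio rose with the GC content of the hairpin (Spearman's rho 0.348 across genes, which are not independent replicates). The hairpin of Mir375 was 67.2% GC, above 94.1% of detected genes, whereas Mir7-1 was 41.7%, Mir7b 46.8% and Mir7-2 50.5%, above 16.8%, 38.3% and 51.9% of them. With the linear trend removed, Mir375 turned to -0.44, towards replicate 2, and Mir7b was at -0.45, so that these 2 genes had nearly the same ratio. Mir7-1 then stood at 0.27 (exact binomial test, adjusted p = 0.0061) and Mir7-2 at 0.02 (exact binomial test, adjusted p = 0.986). The near-equal ratios of Mir375, Mir7-1 and Mir7-2 thus did not hold on that scale.

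**Figure D4:**
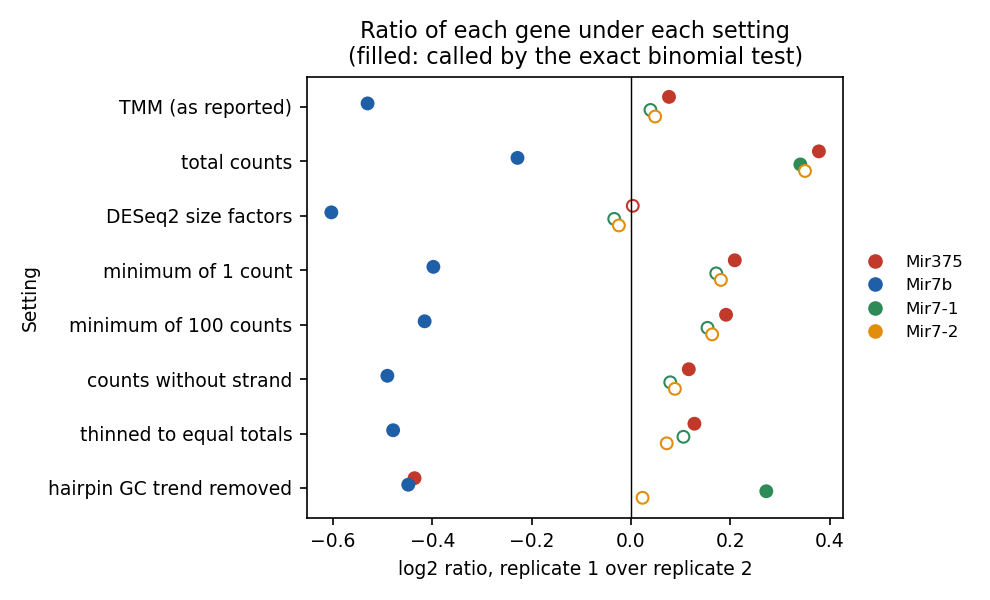
The log2 ratio of replicate 1 over replicate 2 (x axis) for the 4 genes under TMM and 7 other settings (y axis), filled where the exact binomial test called the gene. Mir7b stays below 0 throughout, the other 3 lie close together near or above 0 under the scalings and count minimums, and they separate when the trend with hairpin GC content is removed (-0.44, 0.27 and 0.02).

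Strand did not bear on these genes. Each had the same count on the sense strand as without strand, and 0 antisense counts in both libraries, as 298 of the 339 detected genes (87.9%) had. For Mir375 a count of 0 allowed antisense reads at up to 0.00192% of its sense reads in replicate 1, and for Mir7-2, the lowest, up to 4.0% in replicate 2, taking 3 counts as the limit.

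As counted, every gene on a list of other miRNA genes known from endocrine and neural cells was lower than Mir375 and Mir7b. Of 22 listed, 14 were detected and 5 had 0 counts in both libraries, all of them genes of miR-124 or miR-9. The 4 highest were Mir182 (606 ± 144 CPM, SD, n = 2), Mir132 (560 ± 122), Mir137 (469 ± 47.7) and Mir183 (188 ± 23.5). Mir182 and Mir183 come from a cluster known from sensory and endocrine cells, Mir132 follows CREB activity in neurons, and Mir137 is known from neurons. The 22 genes together had 2281 CPM in replicate 1 and 1885 in replicate 2, below Mir7b alone in both libraries as counted. Mir375 was 12.7-fold and 11.8-fold that counted sum. Mir7-1 ranked between Mir183 and Mir184, and Mir7-2 between Mir212 and Mir200c, in mean CPM. Of the 22 hairpins, 8 share a stretch of at least 20 bases with another annotated hairpin (the 3 genes of miR-124, the 3 of miR-9 and the 2 of miR-129), so their counts may be incomplete in the way of Mir7-1 and Mir7-2. The 0 counts of miR-124 and miR-9 genes therefore do not show absence, and the sum of the list may be too low. Between the libraries, 5 of the 16 tested genes of the list were called towards replicate 1 and 4 towards replicate 2, beside the 30.2% and 28.3% of all tested genes given above, with a median log2 ratio of 0.01, against 0.06 over all tested genes.

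**Figure D5:**
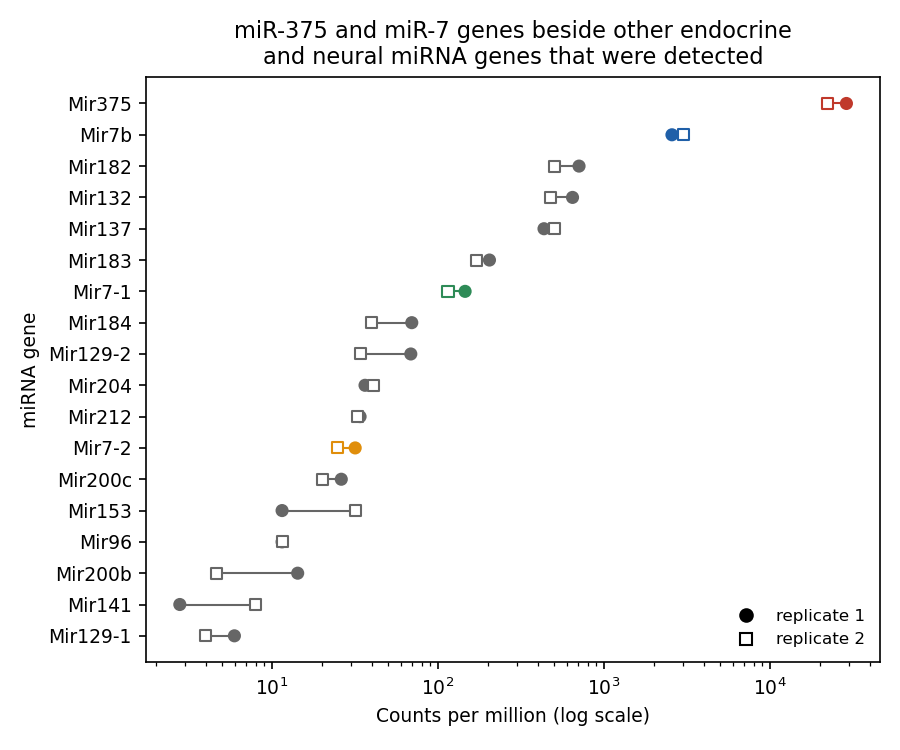
CPM on a log axis for the 4 genes (coloured) and the 14 detected genes of the endocrine and neural list (grey), filled circles for replicate 1 and open squares for replicate 2. As counted, Mir375 and Mir7b stand to the right of every listed gene in both libraries, and Mir7-1 and Mir7-2 lie among the listed genes.

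Markers of other cell types were read beside these levels, since miR-375 is also known from pancreas and some epithelia. The 3 markers of exocrine pancreas, Mir216a, Mir216b and Mir217, summed to 0.926 and 0.990 CPM in the 2 libraries, with Mir216a at 0 counts in both. The hepatocyte gene Mir122 had 1503 and 146 CPM, and the epidermal pair Mir203 and Mir205 had 823 and 3691 CPM in sum, almost all Mir203. The 4 kidney and gut genes summed to 136 and 57.4 CPM, and the 3 red-cell genes to 1210 and 576 CPM. The 5 striated-muscle genes summed to 476 and 495 CPM, nearly all from Mir206, with Mir1a-1 and Mir133a-2 at 0. Of these 5, the 2 genes of miR-1 and the 2 of miR-133a share at least 20 bases with their copy, as do 2 of the 4 kidney and gut genes and 1 of the 3 red-cell genes with another hairpin, so these sums may be too low. Endothelial Mir126a had 133209 and 69285 CPM, and the smooth-muscle pair Mir143 and Mir145a summed to 30240 and 59237 CPM. Several of these lists differed between the libraries by more than Mir375 did (1.30-fold in CPM) or Mir7b did (0.854-fold), and their part in the ratios of the 4 genes was not tested. None of the lists marks the adrenal gland itself, so the tissue label was not checked against a marker of its own.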

How the data were processed

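Each library has 1 deposited table of raw read counts by miRNA gene, with 3 columns and no header. Per the notes deposited with each library, they use mm10 and GENCODE M21. For the aligner, counter, mismatch setting and trimming, the tools were not given in the sources used. The 3 columns add up to 1 total with the summary entries and were read as counts without strand, sense and antisense. Sense counts were used, and the 4 summary entries, of which reads mapped to several places were 28.5% in replicate 1 and 30.6% in replicate 2 of 13973580 and 7530945 reads, were left out. Depth differed by 1.78-fold.

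TMM and the common dispersion came from edgeR 4.0.16, size factors from DESeq2 1.42.0 (R 4.3.3), exact tests and intervals from scipy 1.17.1 and adjustment over all 434 genes from statsmodels 0.14.6, at a threshold of 0.05 and a prior of 0.5 counts. With 1 group, no quasi-likelihood contrast between conditions could be made. The binomial step was tested on simulated counts that had counting error only. That check does not cover the wider spread between these libraries. Sequences are from RefSeq (GRCm38.p6). Shared stretches were sought in the hairpins of 2201 annotated miRNA gene names and not in the genome. The named genes were the 4 genes, the 2 next in level on each side of each, any miRNA gene within 10 kb, the 4 highest detected genes of the endocrine and neural list, and the marker lists. The genes, lists and alternatives were chosen with earlier results of these data known. Alternatives were other scalings, priors and count minimums, counts without strand, thinning, the pooled spread, removal of the GC trend and leaving out each library.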

Additional observations from a re-analysis of the deposited data

How the results depend on the processing

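Without strand, the mean levels were 32032 CPM for Mir375, 3469 for Mir7b, 163 for Mir7-1 and 35.3 for Mir7-2, because the total was smaller. Per 1000000 of all reads they were 10061, 1102, 51.2 and 11.1. Leaving out 1 library gave 22246 to 28922 CPM, 2569 to 3010, 115 to 146 and 24.8 to 31.7. The order of the 4 genes and the direction of all 6 folds held in each of these, but none of them could change it. Counts of the 4 genes are the same without strand, and a total is common to all genes of a library. Leaving out 1 library leaves the order already given for the other. With DESeq2 size factors the log2 ratio of Mir375 was 0.0037 and uncalled, and those of Mir7-1 (-0.034) and Mir7-2 (-0.024) turned sign. With total counts Mir7-1 was called at 0.34. With the GC trend removed Mir375 turned to -0.44 and Mir7-1 was called at 0.27. With the pooled spread as the error, the calls of Mir375 (0.077) and Mir7b (-0.53) were lost. The number of genes called was 0 in place of 254, by that alternative's wider error. That error was estimated from the same 2 libraries, so this loss was close to fixed in advance. The cause of the other changes was not tested. No paired analysis was possible because there is 1 group. At the depth of replicate 2, Mir7-2 rests on 75 counts.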
